A study of Mus musculus with 2 samples.

Results

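The sorting of cargo to melanosomes by Rab38, the BLOC complexes and AP-3 was followed through 10 of its genes in melanocyte stem cells (McSCs) of early-anagen hair follicles (HFs) and in mature melanocytes of the hair bulb. The genes were taken by name, *Rab38*, *Rab32*, *Hps1*, *Hps3*, *Hps4*, *Hps5*, *Hps6*, *Dtnbp1*, *Ap3b1* and *Ap3d1*, and all 10 were found among the 32285 genes of both count matrices. They were read in cells with at least 1 *Dct* UMI, fewer than 3 UMIs of *Krt10* and *Krt14* together, less than 5% of UMIs from mitochondrial genes, and more than 10000 (early anagen) or 5000 (bulb) UMIs. A UMI is the tag that marks 1 captured RNA molecule.

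Both conditions came from *Dct*-rtTA; tetO-H2B-GFP mice fed doxycycline, in which the *Dct* promoter drives a nuclear GFP in melanocytes, so that cells were sorted by the activity of a gene that also belongs to the lineage. Early-anagen McSCs came from back skin 4 days after depilation, in mice depilated at 8 weeks of age, and bulb melanocytes from microdissected bulbs of late-anagen HFs at 5 weeks of age. Each condition was 1 library with the cells of 4 mice combined, and no label ties a cell to a mouse. Hair cycle stage, age, depilation, dissociation and the chemistry of the kit (version 3 for early anagen, version 2 for bulb) all changed with the condition and cannot be told apart from it.

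The gate kept 2785 of 11010 early-anagen barcodes (median 24528 UMIs) and 3734 of 4327 bulb barcodes (median 14287 UMIs). Each of 8 melanocyte markers was detected in at least 75.5% of the gated cells of either library, and their summed level was 24639 CPM (counts per 1000000 UMIs) in early anagen and 67431 CPM in the bulb. Epidermal markers summed to 72.9 and 39.1 CPM, those of fibroblasts, endothelial and immune cells to at most 16.7 CPM. The gate itself required *Dct*, one of the 8 melanocyte markers. It also capped *Krt10* (13.1 and 16.2 CPM) and *Krt14*, which are among the epidermal markers. The melanocyte and epidermal values were therefore set in part by the gate. The libraries shared 1 barcode, and none among gated cells. Levels are given as CPM of the summed UMIs of all cells in a group, with exact 95% Poisson intervals. A single library stood for each condition, so the conditions could not be tested against each other and every interval covers counting error only.

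Melanosomes are lysosome-related organelles, and the enzymes of melanin synthesis reach them from early endosomes. The adaptor complex AP-3 and the complex BLOC-1 select cargo and help to form the carriers, BLOC-2 directs the carriers to melanosomes, and the small GTPases RAB38 and RAB32, switched on by BLOC-3, act on the melanosome and carrier membranes. In mice, coat colour mutants are known for most of these genes, such as chocolate (*Rab38*), pale ear (*Hps1*), cocoa (*Hps3*), light ear (*Hps4*), sandy (*Dtnbp1*), pearl (*Ap3b1*) and mocha (*Ap3d1*), and in humans mutations in several of them cause Hermansky-Pudlak syndrome.

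The promoters of *Rab32*, *Hps4*, *Hps3*, *Hps5* and *Hps1* are shown to set the genes' levels beside their start-site sequence. *Rab32* and *Hps4* were both higher in cells with *Oca2*, and *Hps3*, *Hps5* and *Hps1* hold the hexamer CACGTG. *Hps3* was also higher in cells with *Oca2*. So were, by smaller ratios, *Ap3b1*, *Ap3d1* and *Dtnbp1*, whose windows are not shown. CACGTG and CATGTG are the letters of E-boxes of the kind bound by MITF, the master regulator of the lineage. Each window runs from 250 bases before to 50 bases after the start in RefSeq (GRCm38.p6), is written 5′ to 3′ on the gene's strand, and has both hexamers in capitals.
*Rab32*, chr10:10558158-10558457, minus strand: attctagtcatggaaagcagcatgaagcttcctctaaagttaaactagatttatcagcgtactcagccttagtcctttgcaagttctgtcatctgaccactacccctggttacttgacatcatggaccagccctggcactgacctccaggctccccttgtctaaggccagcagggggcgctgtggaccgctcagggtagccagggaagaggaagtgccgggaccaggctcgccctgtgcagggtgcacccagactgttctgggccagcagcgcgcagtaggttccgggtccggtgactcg
*Hps4*, chr5:112342845-112343144, plus strand: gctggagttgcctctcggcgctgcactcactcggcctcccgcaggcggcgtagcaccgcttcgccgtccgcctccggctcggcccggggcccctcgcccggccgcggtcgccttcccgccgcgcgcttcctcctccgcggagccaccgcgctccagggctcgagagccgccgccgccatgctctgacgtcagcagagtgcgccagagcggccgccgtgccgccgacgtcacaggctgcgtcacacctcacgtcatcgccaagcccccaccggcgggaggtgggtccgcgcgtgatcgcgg
*Hps3*, chr3:20035261-20035560, minus strand: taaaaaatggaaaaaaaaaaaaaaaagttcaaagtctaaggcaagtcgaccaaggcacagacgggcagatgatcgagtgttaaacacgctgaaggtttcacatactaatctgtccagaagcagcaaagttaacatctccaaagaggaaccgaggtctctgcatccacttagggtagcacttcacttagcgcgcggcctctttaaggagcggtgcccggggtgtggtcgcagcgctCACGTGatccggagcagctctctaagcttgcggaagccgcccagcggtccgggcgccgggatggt
*Hps5*, chr7:46795832-46796131, minus strand: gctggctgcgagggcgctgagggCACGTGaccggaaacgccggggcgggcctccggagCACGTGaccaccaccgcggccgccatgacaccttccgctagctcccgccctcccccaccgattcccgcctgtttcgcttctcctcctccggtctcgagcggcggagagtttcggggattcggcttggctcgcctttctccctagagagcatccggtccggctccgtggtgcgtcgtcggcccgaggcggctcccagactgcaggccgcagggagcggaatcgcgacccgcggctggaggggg
*Hps1*, chr19:42779929-42780228, minus strand: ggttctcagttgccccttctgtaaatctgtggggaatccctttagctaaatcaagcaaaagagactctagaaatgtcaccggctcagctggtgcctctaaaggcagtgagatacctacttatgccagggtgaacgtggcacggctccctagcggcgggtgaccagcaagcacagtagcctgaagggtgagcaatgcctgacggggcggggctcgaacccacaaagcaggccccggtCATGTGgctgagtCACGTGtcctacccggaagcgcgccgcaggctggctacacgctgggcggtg

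RefSeq windows matched 9 of the 10 genes, with 2 windows for *Hps1*. No window was available for *Rab38*, which was also higher in cells with *Oca2*. Counted from the hexamer's first base, CACGTG was found 15 bases before the start of *Hps3*, 1 base before that of *Hps1*, where it spans the start, and 227 and 192 bases before that of *Hps5*. CATGTG was found 14 bases before the start of *Hps1*. Neither hexamer, on either strand, was found in the windows of *Rab32*, *Hps4*, *Hps6*, *Dtnbp1*, *Ap3b1* and *Ap3d1* or in the second window of *Hps1*. Of 32851 promoter windows of the same length, 7.15% held CACGTG and 14.2% held CATGTG. These matches describe letters only.

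The first comparison asked how the sorting machinery differs between McSCs that have just been activated and mature pigment-producing cells. *Rab38* was far higher in bulb melanocytes, *Hps4* was several times higher, and *Rab32*, *Hps3*, *Hps6* and *Dtnbp1* were higher by smaller ratios. *Hps5*, *Ap3b1*, *Ap3d1* and *Hps1* were lower. Many genes were lower still: 33.6% had a ratio below that of *Hps5*, 38.1% below *Ap3b1*, 44.6% below *Ap3d1* and 52.7% below *Hps1*. By the rule of at least 2-fold with at least 50 UMIs in both groups together, 3 genes were higher (*Rab38*, *Hps4* and *Hps6*), where 14.8% of the 12598 genes measured at this depth were, and 1 was lower (*Hps5*), where 34.5% were. The call of *Hps6* was lost with a total without mitochondrial, ribosomal protein and cargo genes (log2 ratio 0.95). It was also lost without the 10% of cells with the most UMIs (0.95) and among cells without *Mki67* or *Top2a* (0.89). The median log2 ratio of the 10 genes, bulb over early anagen, was 0.84, and over all 15502 genes seen in both groups it was -0.42. Without *Rab38* the median of the other 9 was 0.73.

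**Figure D1:**
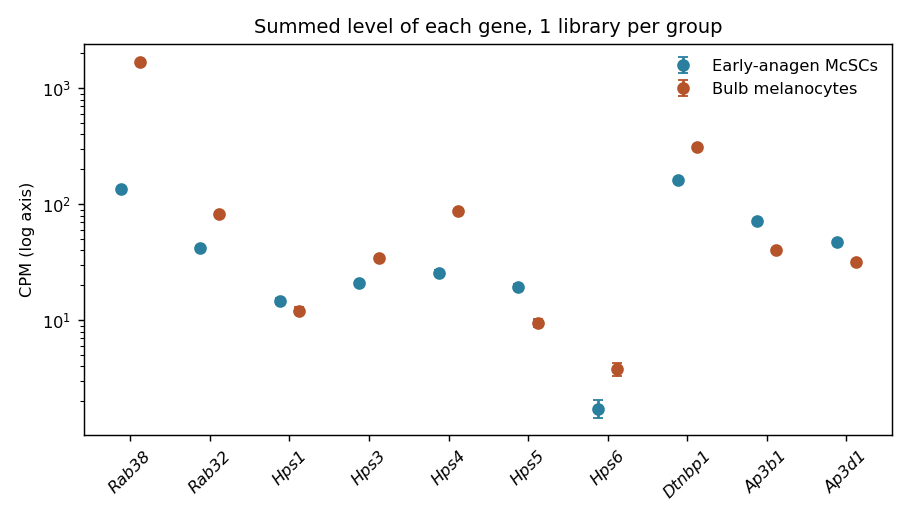
Level of each of the 10 genes in gated early-anagen McSCs (blue) and bulb melanocytes (orange), in CPM on a log axis, with exact 95% Poisson intervals that are mostly smaller than the points. *Rab38* shows the widest gap, from 135 to 1682 CPM, whereas *Hps1*, *Hps5*, *Ap3b1* and *Ap3d1* lie lower in the bulb.

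The scale chosen moves all ratios together. TMM factors added 0.31 and median-of-ratios factors 0.42 to every log2 ratio, whereas a total without mitochondrial, ribosomal protein and cargo genes took 0.17 away. Of all genes past 2-fold, 30.0% were higher in the bulb on the total-UMI scale, 42.7% with TMM, 47.3% with median-of-ratios and 23.7% with the reduced total. With TMM or median-of-ratios factors 6 of the 10 genes were at least 2-fold higher and 0 were lower. With the reduced total 2 were higher and 2 lower. Of all 12598 genes, 21.2% were at least 2-fold higher and 28.4% lower with TMM. These shares were 23.7% and 26.4% with median-of-ratios factors, and 11.9% and 38.5% with the reduced total. The differences between the genes' own ratios do not depend on the scale.

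*Rab38* (ENSMUSG00000030559, chromosome 7, 88430273 to 88491572, plus strand, GRCm38) encodes the GTPase that is largely restricted to melanocytes and a few other cell types with related organelles. Early-anagen McSCs held 135 CPM (132 to 138; 10219 UMIs) and bulb melanocytes 1682 CPM (1671 to 1693; 93990 UMIs). The log2 ratio was 3.64 (3.61 to 3.67), a 12.5-fold difference, and only 1.23% of the 12598 genes had a higher ratio. Its partner *Rab32* (ENSMUSG00000019832, chromosome 10, 10545002 to 10558265, minus strand), which acts with it in melanocytes and is found in more tissues, was at 41.9 CPM (40.5 to 43.4) and 82.0 CPM (79.7 to 84.5). Its log2 ratio was 0.97 (0.90 to 1.04), just under the 2-fold line. The intervals of the ratios of the GTPase pair lie far apart.

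BLOC-3 is the exchange factor that loads both GTPases with GTP, and its subunits differed in direction. *Hps4* (ENSMUSG00000042328, chromosome 5, 112343083 to 112378414, plus strand) was at 25.8 CPM (24.7 to 27.0) in early anagen and 88.2 CPM (85.8 to 90.7) in the bulb, a log2 ratio of 1.77 (1.70 to 1.85). *Hps1* (ENSMUSG00000025188, chromosome 19, 42755105 to 42779978, minus strand) was at 14.7 CPM (13.8 to 15.6) and 12.1 CPM (11.2 to 13.1), a log2 ratio of -0.28 (-0.42 to -0.14). The direction of *Hps1* turned under TMM (0.035) and median-of-ratios factors (0.15), so only its distance from *Hps4* is independent of the scale.

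BLOC-2 holds the carriers at the melanosome. *Hps3* (ENSMUSG00000027615, chromosome 3, 19995945 to 20035315, minus strand) was at 20.8 CPM (19.8 to 21.9) in early anagen and 34.6 CPM (33.1 to 36.2) in the bulb, a log2 ratio of 0.73 (0.64 to 0.83). *Hps5* (ENSMUSG00000014418, chromosome 7, 46760466 to 46796064, minus strand) went the other way, at 19.5 CPM (18.5 to 20.5) and 9.47 CPM (8.68 to 10.3), a log2 ratio of -1.04 (-1.19 to -0.90). *Hps6* (ENSMUSG00000074811, chromosome 19, 46003508 to 46006173, plus strand) rested on 131 and 211 UMIs, at 1.73 CPM (1.45 to 2.05) and 3.78 CPM (3.28 to 4.32), a log2 ratio of 1.13 (0.80 to 1.45), an interval that spans the 2-fold line. *Hps5* shares 801 bases with *Gm45309*, a sense-intronic transcript on the same strand. *Hps6* shares its whole span of 2666 bases with *4930505N22Rik* on the same strand. These are overlaps of whole gene spans, and whether exons are shared was not examined. Reads in shared exons could be lost. This leaves a doubt over the level of *Hps5*, and over that of *Hps6* with its call past 2-fold. The subunits of this complex therefore lay on both sides of no change, with *Hps3* and *Hps6* above it and *Hps5* below.

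Of BLOC-1, *Dtnbp1*, which encodes dysbindin (ENSMUSG00000057531, chromosome 13, 44922075 to 45002147, minus strand), was at 162 CPM (159 to 165) and 312 CPM (308 to 317), a log2 ratio of 0.95 (0.91 to 0.98). Of AP-3, *Ap3b1*, the β3A subunit (ENSMUSG00000021686, chromosome 13, 94358960 to 94566317, plus strand), was at 72.5 CPM (70.5 to 74.4) and 40.5 CPM (38.9 to 42.2), a log2 ratio of -0.84 (-0.91 to -0.77). *Ap3d1*, the δ subunit (ENSMUSG00000020198, chromosome 10, 80706956 to 80742264, minus strand), was at 47.3 CPM (45.8 to 48.9) and 31.6 CPM (30.1 to 33.1), a log2 ratio of -0.58 (-0.67 to -0.50). Both large AP-3 subunits were lower and dysbindin was higher in the bulb under each of the 3 other scales. Of the 12598 genes measured, 38.1% had a ratio below that of *Ap3b1* and 44.6% below that of *Ap3d1*.

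**Figure D2:**
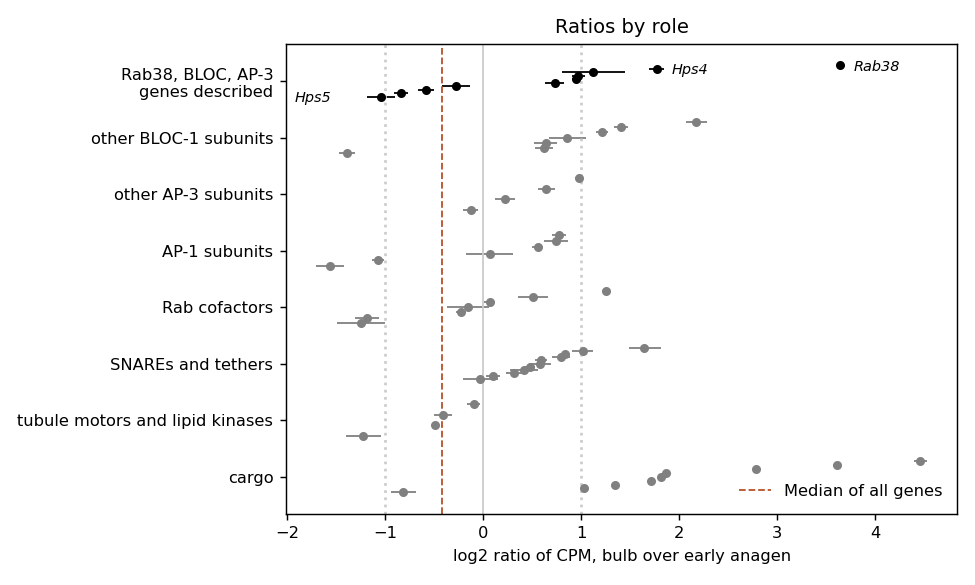
Log2 ratio of CPM, bulb over early anagen, for the 10 genes (black) and for 7 lists of related genes (grey), with exact 95% intervals. The dashed line is the median of all genes (-0.42) and dotted lines mark 2-fold; *Rab38* stands alone among the 10 at 3.64, and the cargo genes reach 4.46.

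The partners of these complexes were read from lists by role, in genes with at least 50 UMIs in both groups together. Counts past 2-fold are those of the total-UMI scale unless another is named. On the total-UMI scale 14.8% of all genes were higher and 34.5% lower. The shares were 21.2% and 28.4% with TMM, 23.7% and 26.4% with median-of-ratios factors, and 11.9% and 38.5% with the reduced total. Of the 7 other BLOC-1 subunits, 3 were at least 2-fold higher in the bulb, led by *Bloc1s5* at a log2 ratio of 2.18 (2.07 to 2.28), and 1 was lower, *Bloc1s1* at -1.39 (-1.47 to -1.31). Their median was 0.86, and 4 were higher with TMM and 6 with median-of-ratios factors. Of 5 other AP-3 subunits 4 could be read and none passed 2-fold, from *Ap3m2* at -0.13 (-0.20 to -0.05) to *Ap3s1*, a small subunit, at 0.98 (0.94 to 1.02), and *Ap3m2* turned positive with TMM and median-of-ratios factors. With TMM 1 of the 4 passed 2-fold and with median-of-ratios factors 2 did. AP-1 is the adaptor that acts with BLOC-1 in the second route from endosomes. Of its 8 subunits 6 could be read, 2 were lower, led by *Ap1g1* at -1.56 (-1.70 to -1.42), and the highest was *Ap1m1* at 0.78 (0.70 to 0.85). With either TMM or median-of-ratios factors 2 AP-1 genes were at least 2-fold higher and 1 lower.

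Among 7 Rab cofactors and related Rabs, *Rab7*, a GTPase of late endosomes, was at least 2-fold higher at a log2 ratio of 1.25 (1.22 to 1.28). At least 2-fold lower were 2, led by *Sgsm2* at -1.24, but 0 were with TMM or median-of-ratios factors. Of 11 SNAREs and tethers, which fuse carriers with their target, 2 were at least 2-fold higher, led by *Vps18* at 1.65 (1.48 to 1.81), and none was lower. The lowest, *Vps39* at -0.03 (-0.21 to 0.15), held 0 in its interval, and the median of the list was 0.58. With TMM 4 of the 11 were at least 2-fold higher, with median-of-ratios factors 6 and with the reduced total 1. Of 4 tubule motors and lipid kinases, *Kif13a*, the kinesin that pulls endosomal tubules, was lower at -1.22 (-1.40 to -1.05), a call lost with TMM (-0.91) and median-of-ratios factors (-0.80), and *Myo6* was nearest to no change at -0.10 (-0.17 to -0.03), turning positive with TMM and median-of-ratios factors.

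Of 9 cargo proteins of melanosomes, 8 were at least 2-fold higher in the bulb. The largest log2 ratios were those of *Oca2* at 4.46 (4.40 to 4.53) and *Gpr143* at 3.61 (3.57 to 3.66), near that of *Rab38*, followed by *Slc45a2* at 2.79 (2.77 to 2.81). *Mlana*, *Pmel*, *Tyr*, *Tyrp1* and *Dct* were between 1.03 and 1.87. *Dct* had a part in both the sort and the gate, and was under 2-fold with the reduced total (0.85). The exception was *Atp7a*, the copper pump that supplies tyrosinase and is delivered by BLOC-1, at -0.81 (-0.94 to -0.69). The median log2 ratio of the cargo genes was 1.82.

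Depth differed between the libraries, so shares of cells were compared at 5000 UMIs drawn at random from each cell. *Rab38* was detected in 45.3% (43.4 to 47.1; exact Clopper-Pearson interval) of early-anagen McSCs and in 98.8% of bulb melanocytes. In the bulb, 94.0% of cells held 3 or more *Rab38* UMIs, against 5.49% in early anagen. *Rab32* was detected in 16.5% and 29.9% of cells, *Hps4* in 12.1% and 34.3%, *Hps3* in 9.44% and 16.9%, and *Dtnbp1* in 52.8% and 76.9%. Lower shares in the bulb were found for *Ap3b1* (30.4% and 18.0%), *Ap3d1* (21.0% and 14.9%) and *Hps5* (9.08% and 4.74%). *Hps1* was detected in 6.93% (6.01 to 7.94) and 6.0% (5.26 to 6.81), intervals that overlap, and at this depth its log2 ratio of -0.18 (-0.46 to 0.10) held 0. *Hps6* was detected in 0.898% and 2.01% of cells. At full depth *Rab38* was detected in 86.0% of early-anagen McSCs and 99.6% of bulb melanocytes.

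**Figure D3:**
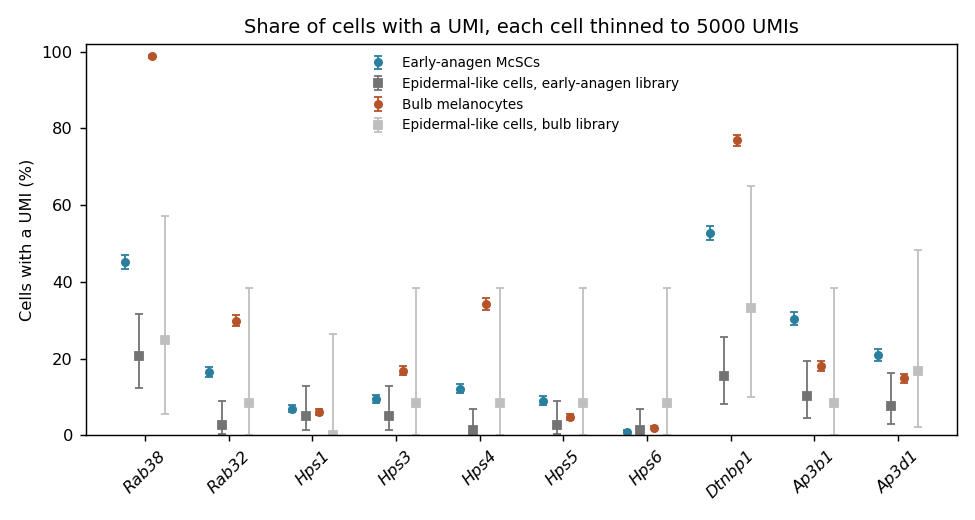
Share of cells with at least 1 UMI of each gene, in percent, after thinning to 5000 UMIs per cell, with exact Clopper-Pearson intervals, in gated cells (circles) and epidermal-like cells (squares) of each library. *Rab38* was at 45.3% in early-anagen McSCs, 20.8% in epidermal-like cells of that library and 98.8% in bulb melanocytes; the 12 epidermal-like cells of the bulb library give wide intervals.

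RNA free in the droplets gives UMIs in cells that do not express a gene, and epidermal-like cells of the same libraries were read for comparison. Whether these cells express the genes themselves was not tested, so their UMIs cannot be taken as free RNA alone. There were 77 in the early-anagen library (median 33203 UMIs) and 12 in the bulb library (median 11028 UMIs). At 5000 UMIs, *Rab38* was detected in 20.8% (12.4 to 31.5) of the former and 25.0% of the latter. In the 77 cells the share was 2.60% for *Rab32*, 1.30% for *Hps4*, 15.6% for *Dtnbp1*, 10.4% for *Ap3b1* and 7.79% for *Ap3d1*, with intervals below those of the gated McSCs. It was 5.19% (1.43 to 12.8) for both *Hps1* and *Hps3* and 2.60% (0.316 to 9.07) for *Hps5*, intervals that overlap those of the gated McSCs. For *Hps6* it was 1.30% (0.0329 to 7.02), from 1 of the 77 cells, an interval that holds the 0.898% of gated McSCs. It is too wide to set the 2 groups apart.

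By CPM, *Rab38* in the 77 epidermal-like cells was at 65.1 (56.2 to 75.0), 48.2% of the level in gated McSCs of that library. The summed melanocyte markers there were at 4.33% of the gated level, and *Rab32* was at 15.4%. The other 8 genes were between 22.2% (*Dtnbp1*) and 52.3% (*Ap3d1*). The 77 cells were chosen for low melanocyte markers, so the marker value was set in part by that choice and cannot serve as a measure for *Rab38*. Cargo genes that are not among the markers stood at 4.24% (*Slc45a2*), 1.70% (*Gpr143*), 0% (*Oca2*) and 35.7% (*Atp7a*) of the gated level. *Rab38* was nearer to the level of the McSCs than any of these cargo genes was, and the source of its UMIs was not tested. The 12 cells of the bulb library held between 1 and 7 UMIs of each gene, so their levels are rough. Relative to gated bulb melanocytes they stood at 3.09% for *Rab38*, 8.41% for *Hps4*, 9.04% for *Rab32*, 11.9% for *Dtnbp1* and 36.6% for *Ap3b1*. They stood at 61.2% for *Hps1*, 70.4% for *Ap3d1*, 85.8% for *Hps3*, 157% for *Hps5* and 196% for *Hps6*. At 5000 UMIs the share of the 12 cells was above that of bulb melanocytes for *Hps5* and *Hps6* (8.33% each) and *Ap3d1* (16.7%), with intervals too wide to set the bulb shares of these genes apart from background.

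**Figure D4:**
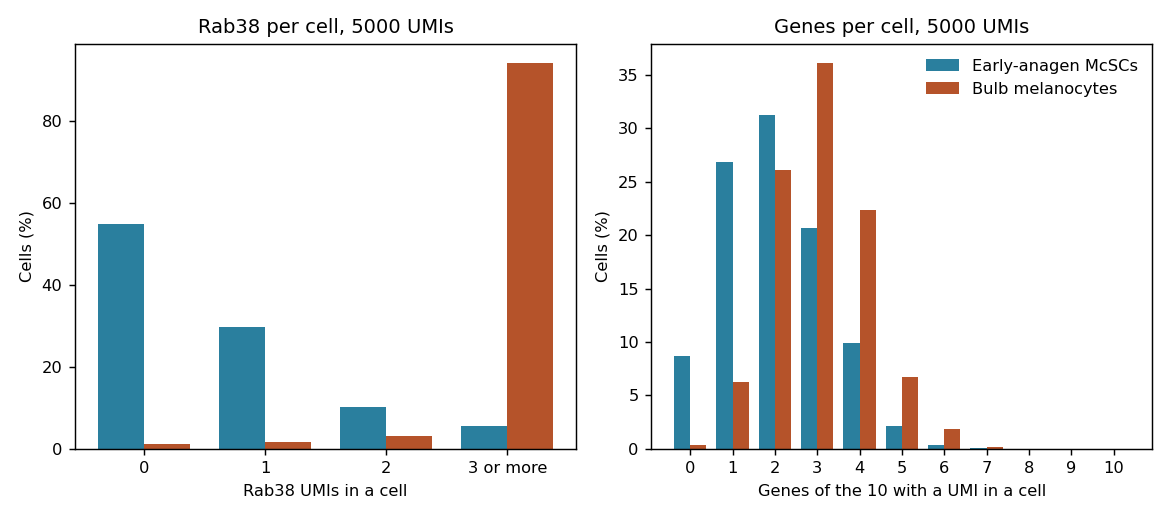
Left, share of gated cells (percent) by the number of *Rab38* UMIs in a cell; right, share of cells by how many of the 10 genes had a UMI, both at 5000 UMIs per cell. Bulb melanocytes (orange) held 3 or more *Rab38* UMIs in 94.0% of cells, and the median number of genes detected was 3 in the bulb and 2 in early anagen (blue).

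Per cell at 5000 UMIs, early-anagen McSCs held UMIs of a median of 2 genes (mean 2.04) and bulb melanocytes of 3 (mean 3.02). Of early-anagen McSCs 33.2% (31.4 to 35.0) held UMIs of 3 or more genes, and of bulb melanocytes 67.3% (65.7 to 68.8). Without *Rab38*, the means were 1.59 and 2.04. No cell of either group held UMIs of 8 or more of them at this depth. The 2 GTPase genes were seen together in 8.65% of early-anagen McSCs and 29.8% of bulb melanocytes. *Rab32* was detected in 19.1% (17.0 to 21.4) of the 1261 early-anagen McSCs with *Rab38* and in 14.3% (12.6 to 16.2) of the 1524 without. In the bulb only 43 cells lacked *Rab38*, and 5 of them held *Rab32*.

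The second comparison asked whether the sorting genes differ with *Oca2*, a late pigmentation gene whose product is itself an AP-3 and BLOC-1 cargo, within the early-anagen library. Cells were thinned to 10000 UMIs and called *Oca2*+ from 1 *Oca2* UMI. This gave 293 *Oca2*+ cells (10.5%), of which 137 held 1, 61 held 2 and 95 held 3 or more *Oca2* UMIs, and 2492 *Oca2*- cells. At full depth 454 of the 2785 cells (16.3%) held an *Oca2* UMI, so some cells called *Oca2*- had lost theirs by thinning. *Rab32*, *Rab38*, *Hps4* and *Hps3* were higher in *Oca2*+ McSCs by log2 ratios between 0.72 and 1.08, *Ap3b1*, *Ap3d1* and *Dtnbp1* by less, and *Hps1* and *Hps5* had intervals that held 0. *Rab32* alone passed 2-fold, where 2.06% of the 10712 genes measured were at least 2-fold higher and 4.85% lower.

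*Rab32* was at 35.4 CPM (33.1 to 37.9) in *Oca2*- McSCs. It was at 75.9 CPM in cells with 1 *Oca2* UMI, 77.0 CPM with 2 and 72.6 CPM with 3 or more, and the intervals of these 3 classes overlapped while lying above that of cells with 0. The log2 ratio of *Oca2*+ over *Oca2*- was 1.08 (0.86 to 1.30). *Rab38* was at 122 CPM (118 to 127) with 0, 214 CPM (190 to 240) with 1, 216 CPM (181 to 257) with 2 and 266 CPM (235 to 301) with 3 or more *Oca2* UMIs. Its log2 ratio was 0.92 (0.80 to 1.04). The ratios of *Rab38* and *Rab32* have overlapping intervals here, in contrast to the comparison with the bulb. The call of *Rab32* depended on its closeness to the 2-fold line. It was under 2-fold with all UMIs of each cell (log2 ratio 0.97), without the gate (0.91) and with a minimum of 20000 UMIs (0.98).

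*Hps4* was at 24.4 CPM (22.5 to 26.5) in *Oca2*- and 45.7 CPM (38.3 to 54.2) in *Oca2*+ McSCs, a log2 ratio of 0.90 (0.62 to 1.18). *Hps3* was at 19.5 and 32.1 CPM, a log2 ratio of 0.72 (0.39 to 1.04). *Ap3b1* (0.34, 0.15 to 0.53), *Ap3d1* (0.26, 0.02 to 0.50) and *Dtnbp1* (0.21, 0.07 to 0.34) were closer to no change. *Hps1* had a log2 ratio of 0.43 (-0.02 to 0.84) and *Hps5* of 0.35 (-0.03 to 0.71), and *Hps6*, with 6 and 41 UMIs, could not be read. The median of the 10 log2 ratios, with *Hps6* included, was 0.39, and over all 13628 genes seen in both groups it was 0.05. For the 9 genes with at least 50 UMIs it was 0.43, and for the 10712 such genes of the matrices 0.01.

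Of the other lists, none of the 7 other BLOC-1, 4 AP-3, 6 AP-1, 7 Rab cofactor, 11 SNARE and tether or 4 motor and kinase genes that could be read passed 2-fold in this split. Among cargo genes, *Gpr143* at a log2 ratio of 2.10 (1.96 to 2.25), *Tyr* at 1.18 (1.12 to 1.23) and *Pmel* at 1.13 (1.11 to 1.15) did. *Oca2* set the split. *Oca2*+ cells held *Mki67* or *Top2a*, which mark cycling cells, in 22.2% of cells, and *Oca2*- cells in 38.4%, and the median depth before thinning was 27305 and 24126 UMIs. *Krt10* or *Krt14* UMIs were found in 39.6% and 34.3%. The median mitochondrial share was 3.48% in *Oca2*+ and 3.03% in *Oca2*- cells, and 3.77% in cells with 3 or more *Oca2* UMIs, and its part in the differences was not tested. Log2 ratios of *Oca2*+ over *Oca2*- were also taken among cells without a UMI of either cycling marker. They were 0.87 (0.73 to 1.01) for *Rab38*, 1.16 (0.90 to 1.41) for *Rab32*, 0.92 (0.60 to 1.23) for *Hps4* and 0.57 (0.18 to 0.94) for *Hps3*.

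**Figure D5:**
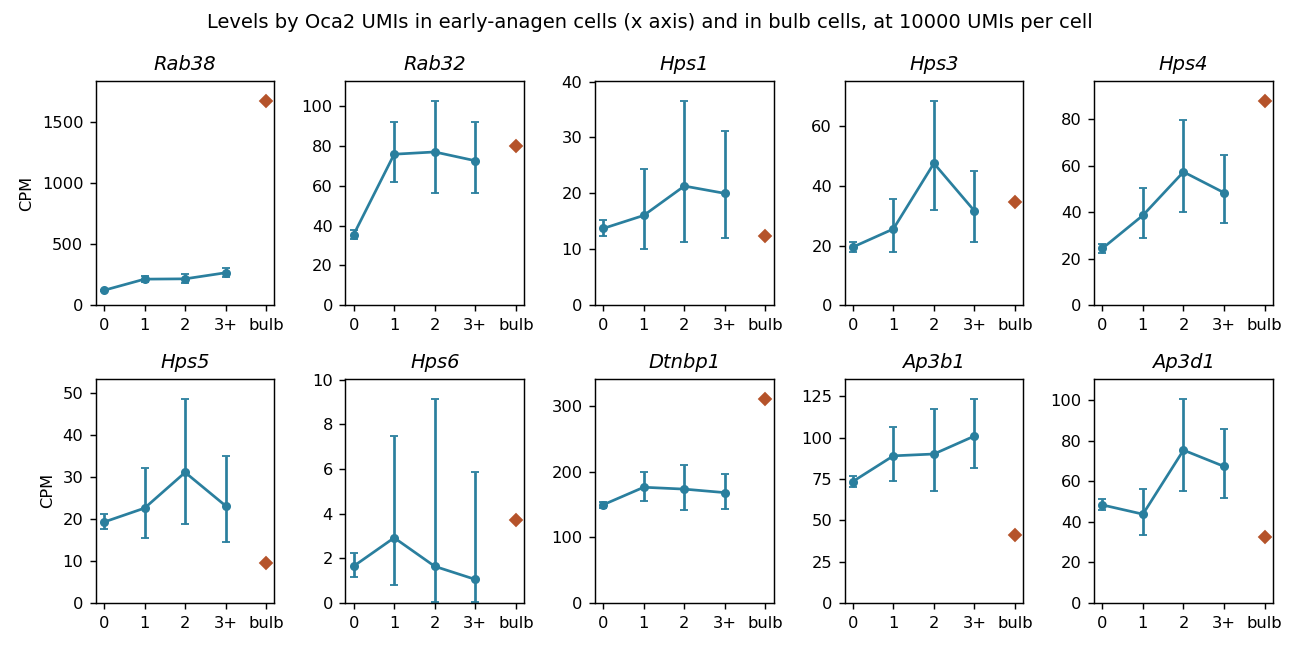
CPM of each gene in early-anagen McSCs with 0, 1, 2 and 3 or more *Oca2* UMIs (blue, exact 95% intervals) and in bulb melanocytes (orange diamond, no interval drawn), at 10000 UMIs per cell, each panel on its own axis from 0. On this total-UMI scale *Rab32* in *Oca2*+ McSCs lies near the bulb level, *Rab38* stays far below it, and *Ap3b1*, *Ap3d1* and *Hps5* lie above it. Relative to the median of all genes seen in both groups (-0.49) *Rab32* is 0.58 higher in the bulb, log2. By the median of genes with at least 50 UMIs (-0.19) that difference is smaller.

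Set beside the bulb, *Oca2*+ McSCs differed by gene. The log2 ratio of bulb over *Oca2*+ McSCs was 0.09 (-0.10 to 0.30) for *Rab32* (80.1 and 75.1 CPM) and 0.11 (-0.19 to 0.43) for *Hps3*, so that on the total-UMI scale a difference was not detectable at this depth. The median of all genes seen in both groups was -0.49 in this comparison. Relative to it *Rab32* stood at 0.58 (0.38 to 0.79) and *Hps3* at 0.60 (0.30 to 0.92), both above 0, whereas *Hps1* stood at -0.10 (-0.51 to 0.34). Over the 10188 genes with at least 50 UMIs the median was -0.19. By that reference *Rab32* and *Hps3* stood nearer to 0, and *Hps1* further below it. The lower bound of *Hps3* on the total-UMI scale, -0.19, lies at that median. *Rab38* was still 7.22-fold higher in the bulb, at 1672 and 231 CPM, a log2 ratio of 2.85 (2.74 to 2.96). *Hps4* was at 0.94 (0.69 to 1.20) and *Dtnbp1* at 0.84 (0.71 to 0.98). *Hps5* at -1.37 (-1.74 to -0.98), *Ap3b1* at -1.18 (-1.37 to -0.99), *Ap3d1* at -0.84 (-1.07 to -0.60) and *Hps1* at -0.58 were lower in the bulb. By the 2-fold rule on the total-UMI scale 1 gene was higher and 2 were lower, against 14.3% and 26% of 10188 genes. Relative to the median of -0.49, *Rab38* (3.34), *Hps4* (1.43), *Dtnbp1* (1.33) and *Hps6* (1.35, on 6 UMIs in *Oca2*+ McSCs) were past 2-fold higher. *Hps5* (-0.88), *Ap3b1* (-0.69) and *Ap3d1* (-0.35) were then under 2-fold lower. The share of all genes past 2-fold relative to that median was not computed. The *Oca2*+ cells enter both this comparison and the former.

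In the bulb itself 3129 cells were *Oca2*+ and 159 *Oca2*- at 10000 UMIs, a depth that 446 bulb cells did not reach. *Rab32* was at 82.2 and 40.3 CPM there, a log2 ratio of 1.03 (0.67 to 1.41), and was again the gene past 2-fold, where 3.67% of the 9857 genes were at least 2-fold higher and 4.24% lower. It rested on 64 UMIs in the 159 cells. Of the 9 cargo genes 8 had intervals above 0, but for *Oca2* this was fixed by the split, and the interval of *Atp7a* held 0. By the 2-fold rule 2 were higher, *Oca2* and *Pmel*. The share of all genes with intervals off 0 was not computed. *Pmel* was at 15574 and 7510 CPM and *Dct* at 16204 and 9606 CPM. Whether *Rab32* differed apart from these cargo genes was not tested. *Rab38* was at 1692 and 1269 CPM, a log2 ratio of 0.42 (0.35 to 0.48), and *Dtnbp1* at 313 and 284 CPM, a log2 ratio of 0.14. For the other 7 genes the interval held 0. *Mki67* or *Top2a* UMIs were found in 1.85% of *Oca2*+ and 8.81% of *Oca2*- bulb melanocytes. *Krt10* or *Krt14* UMIs were found in 22.6% of the *Oca2*+ and 27.7% of the *Oca2*- cells. The gate capped both genes, and of all gated bulb cells 21.7% held *Krt10* and 0.08% *Krt14*. *Ap1m2*, an AP-1 subunit at 59.3 CPM in the epidermal-like cells of the bulb library, went the other way from *Rab32*. It held 5 UMIs (0.16 CPM) in the *Oca2*+ and 13 (8.18 CPM) in the *Oca2*- cells, so epidermal RNA may be unequal between them. The part of cycling cells or of epidermal RNA in the difference of *Rab32* was not tested.

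Cycling cells of the early-anagen library, 1022 cells with a *Mki67* or *Top2a* UMI, were set beside the 1763 without, at 10000 UMIs per cell. None of the 9 genes with at least 50 UMIs was at least 2-fold higher or lower, where 4.67% and 1.25% of 10712 genes were. *Dtnbp1*, at 170 CPM in cycling cells and 142 CPM in the others, had a log2 ratio of 0.26 (0.17 to 0.35). *Rab38* was at 112 and 146 CPM, a log2 ratio of -0.38 (-0.48 to -0.28), and *Hps3* (-0.42), *Hps4* (-0.23) and *Ap3b1* (-0.22) were also lower in cycling cells. *Rab32* was at 40.3 and 39.2 CPM, a log2 ratio of 0.04 (-0.14 to 0.22). All 9 cargo genes were lower in cycling cells, with a median of -0.43, and the median of all genes was -0.03.

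The genes whose pattern was most like that of *Rab38* were sought over 4 groups of cells, early anagen with 0, with 1 and with 2 or more *Oca2* UMIs and the bulb, among 4579 genes of at least 20 CPM in the bulb. By Euclidean distance in centred log2 CPM these were *Me1* (0.21), *Nkd1* (0.29), *Tmem143* (0.33), *Rusc1* (0.33) and *Ctsh* (0.38). *Me1*, which encodes malic enzyme, went from 13.7 CPM to 20.4 and 23.1 CPM and then 173 CPM in the bulb, next to 122, 214, 247 and 1672 CPM for *Rab38*. None of the 5 is on the lists above. The classes with 1 and with 2 or more *Oca2* UMIs held only 137 and 156 cells, where *Rusc1* was at 7.30 and 10.3 CPM. No interval was computed for the distances, so the order of genes with close distances is not settled. The 4 groups come from 2 libraries, so this order describes these cells only.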

How the data were processed

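Single GFP+ cells had been sequenced as 2 droplet libraries, 1 per condition, and the matrices that the authors deposited hold UMI counts of genes by barcodes, not normalized, made with Cell Ranger 6.0.1 on mm10/GRCm38, with no filter on mitochondrial share or cell type applied. The totals were 116800173 UMIs (early anagen) and 58161397 (bulb). Cells were gated as described above, UMIs were summed over gated cells (75718468 and 55883067) and scaled to CPM by all UMIs. Ratios have the exact 95% interval of 2 Poisson sums and shares Clopper-Pearson intervals, and UMIs count molecules, so both cover counting error only. No test was run and no p-value computed, since cells are not replicates. Thinning drew UMIs without replacement. No doublet caller was used, and a setting without the 10% of cells with the most UMIs stands in for it. Epidermal-like cells passed the UMI and mitochondrial limits, held at least 3 *Krt10* and *Krt14* UMIs, and had melanocyte markers under 0.25 of the gated level.

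The 10 genes, the other lists and the markers were chosen with earlier results of these data known. All 10 genes are named. From each other list the genes with the largest and smallest ratio of bulb over early anagen are named, and cargo genes freely. *Ap1m2* is named as well, for its UMIs in *Oca2*- bulb cells. Genes called past 2-fold had at least 50 UMIs in both groups together. *Rab7* and *Rab9* are the symbols of the files for genes listed as Rab7a and Rab9a. Genes most like *Rab38* were the 5 nearest, leaving out *Oca2*, mitochondrial and ribosomal protein genes and model numbers. Promoters came from RefSeq tables. Alternatives were other scales, cell filters, depths and definitions of *Oca2*+ cells. Intervals were tested on simulated Poisson sums only, which leave out any spread between cells beyond counting error. Python 3.11.15, numpy 2.4.6, scipy 1.17.1, R 4.3.3 and edgeR 4.0.16 (TMM factors only) were used. The result of 1 marker list is not reported here.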

Additional observations from a re-analysis of the deposited data

How the results depend on the processing

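The main limits were 1 library per condition, a kit, a depth and a hair cycle stage that changed with it, and counts too low for *Hps6* in early anagen. *Rab38* kept its direction under every alternative run. On the log2 scale, bulb over early anagen, it stood at 3.95 with TMM and 4.06 with median-of-ratios factors, 3.46 with the reduced total, 3.61 with cells thinned to 5000 UMIs, 3.67 without the gate, 3.60 without the 10% of cells with the most UMIs and 3.52 in cells without *Mki67* or *Top2a*, a setting chosen after seeing the data. The median of the 10 genes was 1.15 (TMM), 1.26 (median-of-ratios), 0.66 (reduced total), 0.92 (thinned) and 0.91 (cells without cycling markers). *Hps1* reversed to 0.035 with TMM and 0.15 with median-of-ratios factors, which add a constant to every ratio. With both of these, 6 genes were at least 2-fold higher and 0 lower. The shares over all genes were 21.2% higher and 28.4% lower with TMM, and 23.7% and 26.4% with median-of-ratios factors. Of genes at least 2-fold higher, 2 were left with the reduced total and 2 without the 10% of cells with the most UMIs, where *Hps6* was under 2-fold. The number of genes at least 2-fold lower was 2 with the reduced total, 0 when thinned and 0 without the gate, as *Hps5* and *Ap3b1* lie near the 2-fold line. In the *Oca2* split, 3 genes were at least 2-fold higher with *Oca2*+ set from 2 UMIs, 0 with all UMIs and 0 without the gate. For settings that changed the cells, the depth or the definition of *Oca2*+, the share of all genes past 2-fold was not computed. The counts under those settings therefore cannot be judged against it. The median-of-ratios setting of this split was also added after seeing the data. The share of cells with *Rab38* followed depth by construction. In early anagen it was 86.0% with all UMIs, 26.5% at 2500, 64.5% at 10000 and 15.6% from 2 UMIs, and in the bulb 99.6%, 95.6%, 99.8% and 97.2%, with 98.4% without the gate. No paired analysis was possible because each condition has 1 library.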
